A study of Homo sapiens with 18 samples.

Results

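U2OS is an established human osteosarcoma cell line. Its cells here carried an integrated mCherry-EWS-FLI1 construct, which joins the red fluorescent protein mCherry to EWS-FLI1, the fusion transcription factor of Ewing sarcoma. PolyA RNA of these cells was compared between a 24 h treatment with LY2835219, the inhibitor of the kinases CDK4 and CDK6 also called abemaciclib, and no treatment. The comparison rested on 6 of the 18 libraries of the series, 3 titled as treated for 24 h and 3 titled as untreated, and no measured value entered their choice. Both groups had the same construct in the same line, and the treated one received 7.5 µM of the drug. Another group of 3 libraries came from the same cells after 6 h at the same dose. Untreated U2OS cells with mCherry alone gave 3 libraries, used below as a reference without the fusion, and the remaining 6 (mCherry-EWS-FLI1mut and mCherry-EWS(YS37)-FLI1) served only to estimate the spread between libraries. The titles and sample characteristics give 6 h and 24 h, whereas the treatment protocol in the labels names 3 and 6 hours, so the duration rests on the titles. The labels do not state a vehicle for untreated cells, nor whether the line was 1 clone or a pool. The libraries of a group are called biological replicates with nothing on separate cultures, so the p-values measure the spread between these libraries, which may be technical.

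In a dividing cell, D-type cyclins bind CDK4 and CDK6, and the active kinases phosphorylate the retinoblastoma protein RB. RB that is not phosphorylated holds E2F transcription factors, whose targets build the DNA replication machinery, and the RB relatives p107 and p130 join the DREAM complex on promoters of genes needed for mitosis. Those mitotic promoters often carry the cell cycle homology region (CHR), and promoters of lysosomal genes often carry an E box read by the factors TFEB, TFE3 and MITF, known as the CLEAR element. Loss of RB phosphorylation is the textbook route by which CDK4/6 inhibitors stop the cycle in G1, and abemaciclib also inhibits other kinases at micromolar doses.

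The promoters below show these 3 elements in genes whose RNA changed between untreated and 24 h cells. Each line holds the 80 bases before the RefSeq start site of the gene (GRCh38.p14), read 5′ to 3′ on the strand of the gene, with the matched element in capitals. E2F words were TTTCCCGC, TTTCGCGC, TTTGCCGC and TTTGGCGC, the CHR was TTTGAA, and the CLEAR-type E box was TCACGTGA or CACGTGAC, words that can overlap, so 1 site may hold several. All were searched on both strands.
E2F1, 2 E2F words, chr20:33686386-33686465, minus strand: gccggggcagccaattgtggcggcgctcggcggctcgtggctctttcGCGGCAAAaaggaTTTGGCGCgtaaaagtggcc
E2F2, 1 E2F word, chr1:23531234-23531313, minus strand: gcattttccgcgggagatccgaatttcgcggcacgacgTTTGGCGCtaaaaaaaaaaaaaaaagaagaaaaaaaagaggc
GINS2, 1 E2F word, chr16:85688955-85689034, minus strand: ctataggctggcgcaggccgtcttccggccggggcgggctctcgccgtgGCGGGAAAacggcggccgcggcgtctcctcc
MKI67, 2 CHR, chr10:128126424-128126503, minus strand: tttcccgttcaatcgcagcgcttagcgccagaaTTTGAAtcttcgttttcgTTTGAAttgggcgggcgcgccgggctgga
KIF11, 1 CHR, chr10:92593050-92593129, plus strand: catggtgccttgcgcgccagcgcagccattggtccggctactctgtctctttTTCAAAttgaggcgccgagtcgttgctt
PLK1, 1 CHR, chr16:23678809-23678888, plus strand: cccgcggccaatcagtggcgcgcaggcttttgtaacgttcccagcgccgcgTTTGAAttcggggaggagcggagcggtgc
CTSA, 3 E box words, chr20:45891255-45891334, plus strand: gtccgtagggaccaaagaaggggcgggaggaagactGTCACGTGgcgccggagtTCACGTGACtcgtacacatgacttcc
MCOLN1, 5 E box words, chr19:7522544-7522623, plus strand: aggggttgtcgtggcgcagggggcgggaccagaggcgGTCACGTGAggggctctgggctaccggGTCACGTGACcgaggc

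In the 300 bases around the start site (250 before and 50 after), 24 of the 41 matched promoters of the E2F and S phase list held an E2F word (58.5%), against 3.33% of all 27305 promoters in the RefSeq table. Of the 43 matched promoters of the mitosis list, 31 held the CHR (72.1%), against 15.4% of all promoters. Among the 12185 tested genes with a promoter, the shares were 4.97% for the E2F word and 10.2% for the CHR. The E box was found in 2.66% of all promoters, in 4.17% of those of tested genes and in 7 of 28 lysosomal promoters (25.0%). The other genes among the 44 lysosomal ones had no promoter in the table. These matches describe letters and are no measure of binding in these cells, and the lists hold genes known for such sites.

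Each library held 16261034 to 20270637 estimated counts, with 18367954 to 18995968 at 24 h and 18766232 to 19508221 in untreated cells. The 24 h libraries differed from the untreated ones on the second principal component of the 9 mCherry-EWS-FLI1 libraries, with 23.3% of the variance, while the first, with 50.5%, set the 6 h libraries apart. Mitochondrially encoded genes held 6.16 ± 0.380% of counts at 24 h and 4.80 ± 0.277% in untreated cells (SD, n = 3). The spread after a level is always the SD over 3 libraries, and levels are CPM, counts scaled to a common library size with TMM factors. PTPRC, a surface protein of all white blood cells, stood at 0.562, 0.997 and 1.13 CPM in untreated cells and at 0.902, 0.990 and 0.778 at 24 h.

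The construct was checked first, through the 2 genes that contribute to the fusion. The ETS factor gene FLI1 was at 265, 232 and 245 CPM in the untreated libraries and at 244, 241 and 225 at 24 h, against 0.547 ± 0.563 in mCherry cells. EWSR1 (ENSG00000182944, chromosome 22, 29268009 to 29300525 of hg38, plus strand) was at 742, 724 and 751 CPM untreated and at 799, 798 and 738 at 24 h. The groups overlapped for both genes, and neither passed the test (log2 changes of -0.07 ± 0.09 and 0.07 ± 0.05, edgeR adjusted p = 0.569 and 0.206). With upper-quartile factors EWSR1 passed, at a log2 change of 0.112 (edgeR adjusted p = 0.0441). At 6 h both were higher than in untreated cells, by 0.72 ± 0.09 and 0.69 ± 0.05. Reads do not separate the construct from the endogenous genes.

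At 24 h the cells held less RNA of most cell cycle, YAP target, muscle, sterol and endoplasmic reticulum genes listed below, and more RNA of most lysosomal, p53-regulated and ribosomal protein genes. Of 16786 genes tested with edgeR's quasi-likelihood method, 8051 passed an adjusted p (Benjamini-Hochberg over all genes) under 0.05, which is 48.0%. Called, rose and fell refer to this threshold throughout. Of these, 3919 rose (23.3%) and 4132 fell (24.6%). The median log2 change of all genes was 0.03. Calls with a log2 change of at least 1 numbered 834 rises (4.97%) and 978 falls (5.83%). In 9184 genes (54.7%) the 3 untreated libraries did not overlap the 3 treated ones, called or not. With so many genes called, a call of a single gene or a list share near these values says little about it. Against a log2 change of 0.5 rather than 0, 2300 genes passed. Rises made up 48.7% of the calls on counts and 37.9% of those on log2(TPM + 1) with limma, where TPM is the length-normalised unit of the deposited tables.

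**Figure D1:**
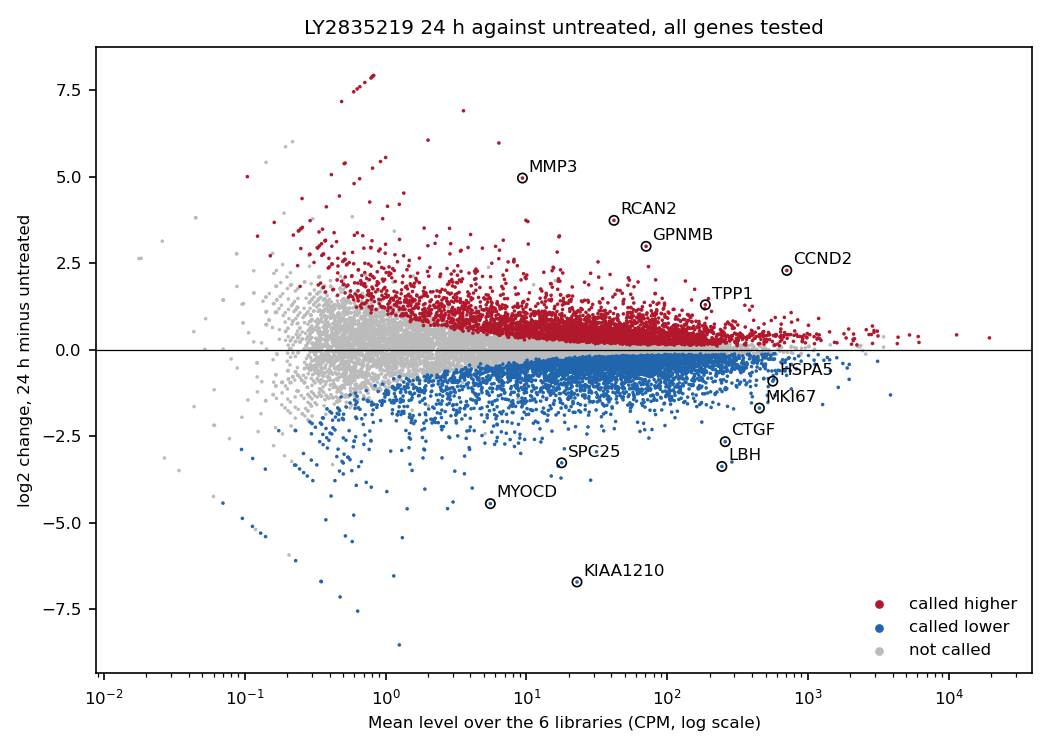
Log2 change at 24 h against untreated cells (vertical axis) by mean level over the 6 libraries in CPM (horizontal axis, log scale) for the 16786 genes tested. Called rises (3919) are red, called falls (4132) blue and other genes grey, with labels on MKI67, CCND2, MMP3, KIAA1210 and 8 further genes of the text.

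The 4 genes given with the comparison moved in both directions. MKI67 (ENSG00000148773, chromosome 10, 128096659 to 128126385 of hg38, minus strand), the Ki-67 proliferation antigen, was at 675, 735 and 660.1 CPM in the untreated libraries and at 229, 199 and 217 at 24 h. All 3 treated libraries lay below all 3 untreated ones, and the fitted change was -1.68 ± 0.07 on the log2 scale (± standard error, as after every log2 change). In bulk RNA, fewer cells of a kind and less RNA per cell cannot be told apart. CCND2 (ENSG00000118971, chromosome 12, 4273772 to 4305350 of hg38, plus strand), cyclin D2, went the other way, from 231, 246 and 242 CPM to 1193, 1169 and 1167, a rise of 2.29 ± 0.05. MMP3 (ENSG00000149968, chromosome 11, 102835801 to 102843803 of hg38, minus strand), the matrix protease stromelysin 1, was low in untreated cells at 0.664, 0.735 and 0.322 CPM and reached 19.3, 17.1 and 18.2 CPM, a rise of 4.96 ± 0.32. KIAA1210 (ENSG00000250423, chromosome X, 119078635 to 119150579 of hg38, minus strand), a gene of unknown role, fell from 44.8, 49.6 and 41.7 CPM to 0.425, 0.495 and 0.363 (-6.71 ± 0.17). Its level in mCherry cells was 11.6 ± 1.74 CPM, above the 24 h libraries, and that difference was not tested. At 6 h MKI67 stood at 504, 480.4 and 443 CPM and KIAA1210 at 20.3, 20.9 and 21.2, both between the untreated and the 24 h libraries. CCND2 at 954, 899 and 884 CPM and MMP3 at 10.2, 13.1 and 10.7 CPM also lay between the other groups at 6 h, without overlap. The step from 6 h to 24 h was called for all 4, at -1.15 ± 0.07 for MKI67, 0.37 ± 0.05 for CCND2, 0.68 ± 0.24 for MMP3 and -5.59 ± 0.18 for KIAA1210. The step of MMP3 lost its call without replicate 1 of the 24 h group or replicate 1 or 3 of the 6 h group (edgeR adjusted p of 0.0534 to 0.0679), and with transcript length offsets (0.134).

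**Figure D2:**
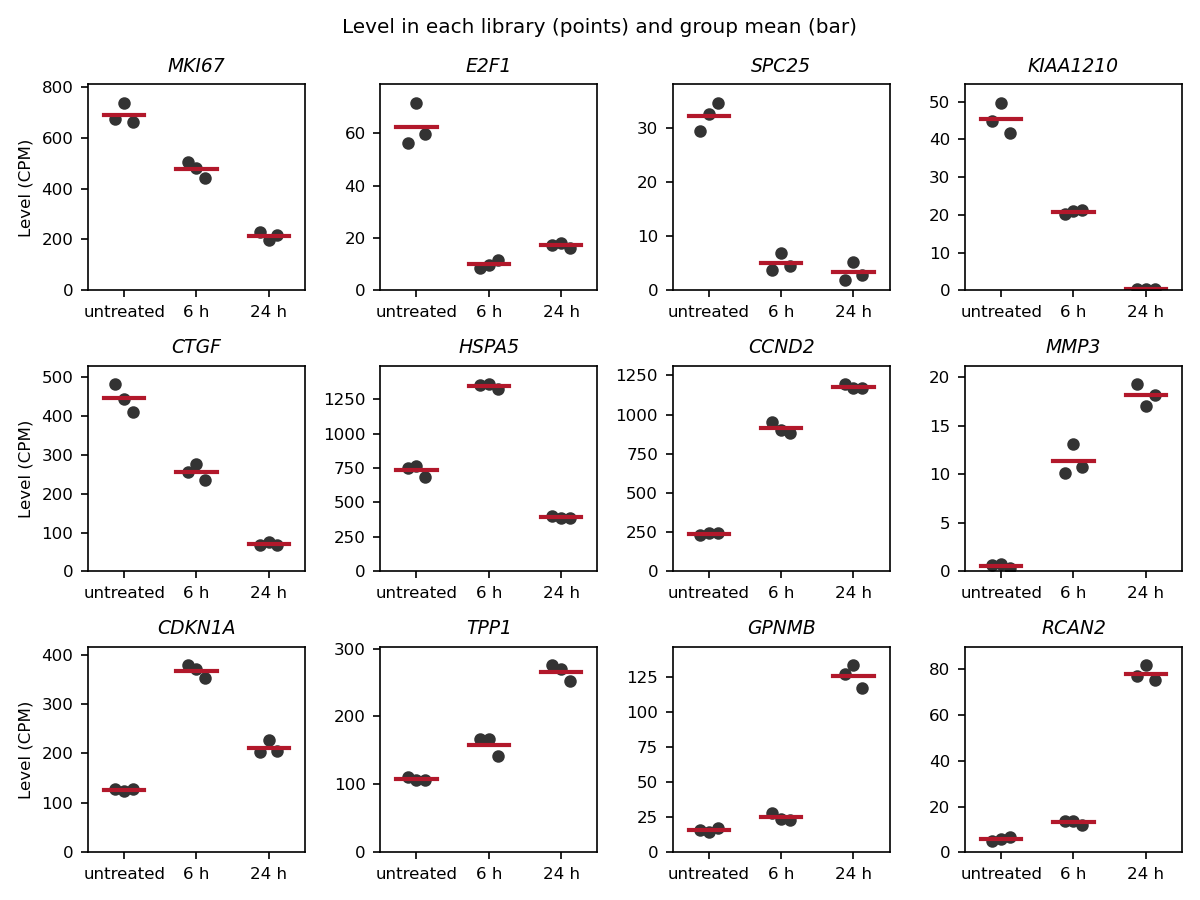
Level in CPM (vertical axis, linear and starting at 0) of 12 genes in each of the 3 untreated, 3 6 h and 3 24 h libraries (points), with a bar at the group mean. MKI67, E2F1, SPC25, KIAA1210, CTGF and HSPA5 end below the untreated libraries, and CCND2, MMP3, CDKN1A, TPP1, GPNMB and RCAN2 end above them.

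The largest rises, ranked by fold among called protein-coding genes that reached 5 CPM without overlap, were in genes of low starting level. RCAN2, a regulator of the phosphatase calcineurin, rose from 4.86, 6.04 and 6.61 CPM to 76.9, 81.7 and 75.3 (3.74 ± 0.14). RENBP, the enzyme that epimerises N-acetylglucosamine, rose from 2.04, 1.26 and 0.806 to 17.6, 19.1 and 18.7 CPM (3.74 ± 0.27). SLAMF7, a surface receptor best known from lymphoid and plasma cells, rose from 1.48, 0.997 and 1.88 to 17.5, 22.1 and 17.5 CPM (3.71 ± 0.23). CELF2, an RNA-binding splicing regulator, stood at 2.91, 2.89 and 3.81 CPM untreated and at 35.0, 30.6 and 26.9 at 24 h (3.27 ± 0.22). In each of these 4 genes every treated library exceeded every untreated one several times over. DCDC2C, a doublecortin-domain gene, rose from 0.195 ± 0.205 to 12.6 ± 0.517 CPM, and BPIFB4, a secreted lipid-binding protein of the BPI fold, from 1.37 ± 0.617 to 12.3 ± 1.20. ODAPH, MYH15 and ARMH1 ended at 5.24 ± 0.208, 7.31 ± 0.492 and 5.19 ± 0.632 CPM from 0.452 ± 0.202, 0.725 ± 0.546 and 0.614 ± 0.147. CD68, a lysosomal glycoprotein of macrophages, rose from 1.48, 1.84 and 3.33 to 19.1, 16.8 and 19.3 CPM. For CD68, 98.5% of the 31-base stretches of its main transcript also occur in transcripts of other genes, so the split of its reads is uncertain. FKBPL stood at 2, 0 and 1 estimated counts untreated and at 131, 139 and 129 at 24 h, but at 0, 0 and 84 in the 3 libraries at 6 h. At 6 h 1 library thus stood near the 24 h level and the other two held no count. The 24 h and untreated libraries do not overlap (edgeR adjusted p = 0.00311), and no fold is given against so few counts.

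The largest falls included muscle, matrix and growth factor genes. MYOCD encodes myocardin, a coactivator of the factor SRF at smooth muscle genes, and fell from 8.33, 15.4 and 8.06 CPM to 0, 0.880 and 0.570 (-4.45 ± 0.39). TNNT2, cardiac troponin T, fell from 28.5, 32.2 and 37.5 to 2.92, 1.87 and 2.70 CPM (-3.71 ± 0.19), with 27.0, 33.7 and 34.3 CPM at 6 h. The 6 h libraries of TNNT2 thus overlapped the untreated ones. SMOC1, a secreted calcium-binding matrix protein, fell from 55.0, 49.2 and 55.8 to 3.82, 3.85 and 4.04 CPM (-3.77 ± 0.15), and ITGA11, a collagen-binding integrin subunit, from 26.8, 28.3 and 28.3 to 2.23, 1.60 and 2.80 (-3.65 ± 0.21). PDGFB, a chain of platelet-derived growth factor, fell from 28.0, 30.9 and 33.4 to 2.92, 4.02 and 2.07 CPM (-3.36 ± 0.18). LBH, a transcription cofactor of limb and heart development, was abundant at 427, 474 and 437 CPM and fell to 38.5, 48.0 and 42.9, after 49.5, 50.7 and 55.4 CPM at 6 h. MYCN, a MYC family factor, fell from 5.77, 6.19 and 5.16 to 0.531, 0.275 and 0.674 CPM after 0.0612, 0.126 and 0.186 at 6 h. CCL24, a chemokine, fell from 7.92, 8.61 and 6.77 to 0.690, 0.550 and 0.207 CPM, RGCC (a regulator of the cell cycle) fell by 3.58 ± 0.41 and SPC25 (a kinetochore subunit) fell by 3.27 ± 0.25. GGTLC2 fell from 5.30 ± 0.558 to 0.214 ± 0.144 CPM, and 71.3% of its 31-base stretches are shared with other genes. In all 24 genes of these rankings the groups do not overlap, as the ranking required.

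Cyclins, kinases and inhibitors of the G1 step split. Of 17 tested genes of this list 3 rose (17.6%) and 12 fell (70.6%), against 23.3% and 24.6% of all genes. The median log2 change was -0.89, and CDKN2A was not tested for lack of counts. Among the D cyclins, which differ in level and so are compared in TPM, CCND2 rose from 54.7 ± 2.40 to 239 ± 8.15 TPM. CCND3 fell from 65.0 ± 4.15 to 21.6 ± 2.68 TPM, and CCND1 stood at 159 ± 6.18 and 125 ± 13.9 TPM. In counts CCND1 was not called by edgeR (-0.12 ± 0.06, adjusted p = 0.076). It was called lower with limma on log2(TPM + 1) (-0.35, adjusted p = 0.00756), with transcript length offsets (0.0139), with DESeq2 (0.0364), with the replicate block (0.0439) and without untreated replicate 2 or 3 (0.0423 and 0.00685). The mean TPM of CCND2 was the lowest of the 3 D cyclins in untreated cells and the highest at 24 h. Of the target kinases, CDK4 rose from 196.1, 209 and 222 to 284, 312 and 283 CPM (0.49 ± 0.06) and CDK6 fell from 561, 490.3 and 479 to 367, 343 and 373 (-0.50 ± 0.07). RB1 itself fell from 64.2, 59.2 and 59.7 to 33.8, 33.6 and 33.4 CPM (-0.86 ± 0.07), while RBL2, which encodes p130, was not called (0.06 ± 0.06). CDKN1A, which encodes the CDK inhibitor p21, rose from 128, 125 and 128 to 204, 226 and 206 CPM (0.74 ± 0.06). The inhibitor genes CDKN1B (p27) and CDKN2C (p18) fell (-1.29 ± 0.07 and -1.33 ± 0.09). CCNE2, cyclin E2, fell from 16.0, 17.2 and 16.9 to 3.40, 1.76 and 3.11 CPM (-2.59 ± 0.17), and other genes share 55.3% of its 31-base stretches.

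Genes of DNA replication fell almost as a whole. Of 46 tested members of the E2F and S phase list, 44 fell, against 24.6% of all genes, with a median log2 change of -1.06. The uncalled members were E2F3, another activator E2F gene (-0.04 ± 0.09), and the polymerase epsilon subunit POLE2 (-0.23 ± 0.11). POLE2 was called lower with no filter on low counts (edgeR adjusted p = 0.0415) and without untreated replicate 2 (0.0262). It was also called lower with only the 2 groups compared and a replicate block (edgeR adjusted p = 0.0461). E2F1, whose promoter carries a pair of E2F words above, fell from 56.2, 71.4 and 59.7 to 17.2, 18.05 and 16.2 CPM (-1.86 ± 0.11). E2F2, with 1 such word, fell from 14.9, 15.8 and 16.4 to 5.47, 3.74 and 3.63 CPM (-1.87 ± 0.14). GINS2, a subunit of the replicative helicase, fell by 1.60 ± 0.10 and MCM7, another helicase subunit, from 562, 610.3 and 599.5 to 204, 206 and 202 CPM (-1.53 ± 0.05). TK1, thymidine kinase, fell by 1.59 ± 0.06, and RRM2, the regulated subunit of ribonucleotide reductase, from 126, 162 and 187 to 35.7, 30.1 and 38.2 CPM (-2.19 ± 0.13). Reads of RRM2 are uncertain, since 95.6% of its stretches are shared. The E2F list was not lower throughout at 24 h than at 6 h: 19 members were higher at 24 h than at 6 h (32.6% of all genes) and 15 lower (30.3% of all genes). E2F1 was at 8.62, 9.60 and 11.6 CPM at 6 h, below its 24 h libraries, and differed between the times by 0.78 ± 0.13. MCM7 went on falling (-0.84 ± 0.05).

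Of 18 genes of homologous recombination and the Fanconi pathway, which repair broken and crosslinked DNA, 14 fell, against 24.6% of all genes (median -0.83). EXO1, a nuclease that trims DNA ends, fell from 41.1, 46.9 and 45.1 to 15.9, 15.1 and 16.2 CPM (-1.49 ± 0.08). BARD1, the partner of BRCA1, fell by 1.20 ± 0.11 and FANCI, which clamps onto crosslinked DNA with FANCD2, fell by 1.17 ± 0.06. Of 13 tested replication-dependent histone genes 8 fell (61.5%, against 24.6% of all genes). HIST1H1C, a linker histone, fell from 147, 172 and 185 to 70.2, 86.2 and 76.5 CPM. Most replication-dependent histone messages lack polyA tails, and polyA RNA was sequenced here.

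Every one of the 50 mitosis genes was called lower, against 24.6% of all genes, and their log2 changes had a median of -1.11. SPC25, a subunit of the NDC80 kinetochore complex, fell furthest of the list, from 29.5, 32.7 and 34.6 to 1.96, 5.23 and 2.90 CPM (-3.27 ± 0.25). MYBL2, the MYB factor that switches DREAM-bound promoters on, fell from 429.5, 474 and 458 to 145, 141 and 131 CPM (-1.71 ± 0.06). FOXM1, the factor that follows it in G2, fell from 327, 371 and 329 to 154, 155 and 136 CPM (-1.21 ± 0.07). Of the genes whose CHR is printed above, MKI67 is given before, KIF11, a spindle motor, fell by 1.35 ± 0.07, and PLK1, a mitotic kinase, fell by 1.23 ± 0.08. TOP2A, the topoisomerase that untangles chromosomes, fell from 851, 856 and 790.2 to 325, 317 and 360.4 CPM (-1.32 ± 0.07). CDK1, the mitotic kinase partner of cyclins A and B, fell from 163, 178 and 154 to 57.2, 57.7 and 63.7 CPM (-1.47 ± 0.07), AURKB fell by 1.33 ± 0.08 and NUSAP1 fell by 1.74 ± 0.09. At 6 h, against the same untreated libraries, 47 of the 50 fell (33.3% of all genes fell, and 31.6% rose). From 6 h to 24 h 30 of them went lower and 8 higher, with a median of -0.43. These shares were 60.0% and 16.0%, against 30.3% and 32.6% of all genes. MYBL2 and FOXM1 were among those that went lower (-1.16 ± 0.05 and -0.86 ± 0.07).

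**Figure D3:**
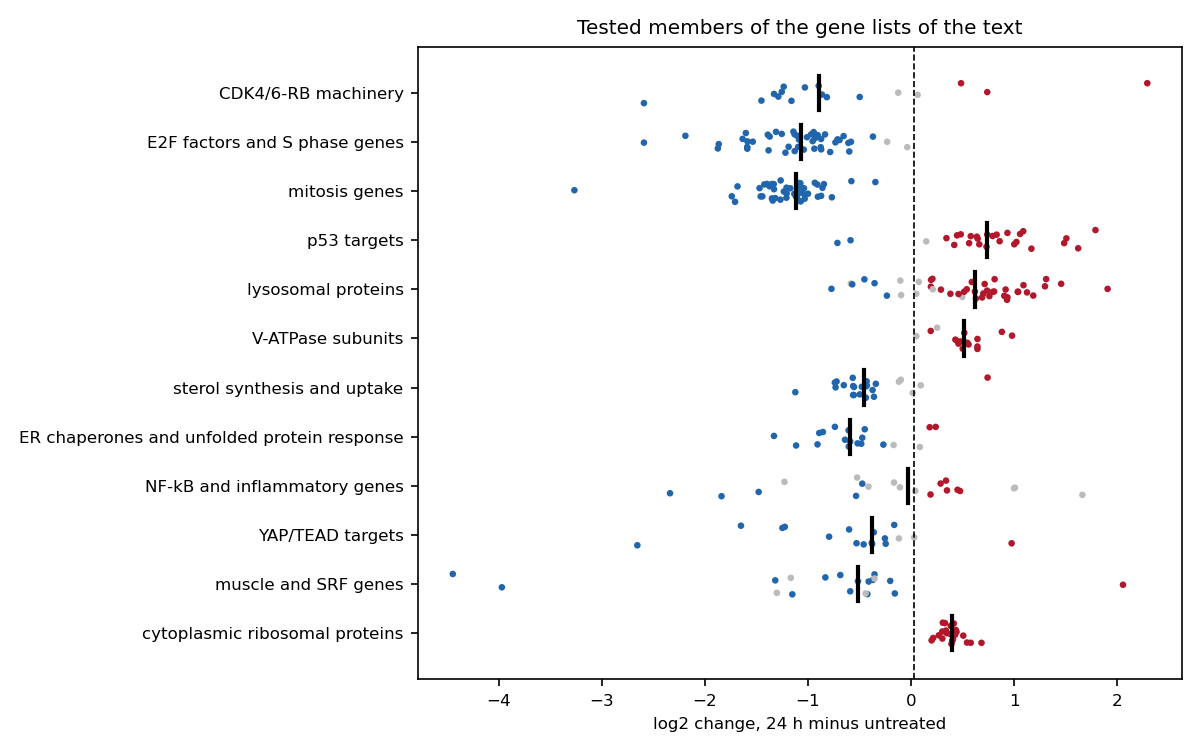
Log2 change at 24 h against untreated cells (horizontal axis) of each tested member of 12 gene lists (points; red called rises, blue called falls, grey not called), with a black bar at the list median and a dashed line at the median of all genes, 0.03. All 50 mitosis genes and 44 of 46 E2F and S phase genes are blue, and all 25 ribosomal protein genes are red.

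Targets of p53, the factor of DNA damage and stress responses, moved the other way. Of 27 tested members 24 rose, against 23.3% of all genes, and 2 fell, GADD45B (-0.71 ± 0.07) and the phosphatase gene PPM1D (-0.59 ± 0.06). The median was 0.74. GADD45A, a stress gene that binds PCNA, rose from 43.3, 35.5 and 41.6 to 122, 124 and 125 CPM (1.62 ± 0.07). GDF15, a secreted stress cytokine, rose from 3.02, 3.67 and 4.51 to 12.3, 13.8 and 12.6 CPM (1.79 ± 0.18), and FAS, the death receptor, from 8.79, 6.98 and 5.48 to 18.6, 19.1 and 22.9 (1.51 ± 0.16). TP53INP1 rose by 1.49 ± 0.09 and MDM2, the ubiquitin ligase that degrades p53, by 0.79 ± 0.07. At 6 h the list had 23 rises and 2 falls (85.2% and 7.41%, against 31.6% and 33.3% of all genes). From 6 h to 24 h 17 members went lower and 9 higher (63.0% and 33.3%, against 30.3% and 32.6% of all genes). GADD45A stood at 200.5, 217 and 199 CPM at 6 h, above all of its 24 h libraries (-0.73 ± 0.07). TP53INP1 still went up between the times (0.35 ± 0.08).

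Among 16 genes of the BCL2 family, which set the threshold for cell death, 5 rose (8 with upper-quartile factors) and 4 fell. BMF, a BH3-only death gene, fell from 39.5, 51.1 and 45.7 to 8.70, 9.46 and 7.05 CPM (-2.43 ± 0.15) after 1.22, 1.58 and 1.43 at 6 h. HRK, another BH3-only gene, rose from 12.1, 9.82 and 9.40 to 26.6, 26.1 and 24.3 CPM (1.30 ± 0.16), and BBC3, which encodes PUMA, by 0.94 ± 0.10. BOK fell by 0.77 ± 0.07. The family share of calls, 9 of 16, was close to that of all genes.

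Lysosomal genes were broadly higher. Of 44 genes of lysosomal proteins 32 rose (72.7%) and 5 fell (11.4%), against 23.3% and 24.6% of all genes, and the median was 0.63. NEU1, the lysosomal sialidase, rose from 4.96, 7.14 and 6.82 to 24.8, 24.9 and 21.4 CPM (1.91 ± 0.19). TPP1, a peptidase, rose from 110.5, 107 and 106 to 275, 269.8 and 252 CPM (1.30 ± 0.08), and CTSA, whose promoter with E boxes is printed above, from 113, 114 and 109.9 to 264, 275 and 228 (1.19 ± 0.07). SGSH and MANBA, which degrade heparan sulfate and mannosides, rose by 1.46 ± 0.13 and 1.31 ± 0.11. MCOLN1, a calcium channel of the lysosome, rose by 0.92 ± 0.12. PSAP, the abundant precursor of the saposins, rose from 809, 830.4 and 848 to 1551, 1707 and 1404 CPM (0.91 ± 0.06). The falls were CTSL, GUSB, CTSZ, CTSF and ARSB, of which CTSL fell furthest (-0.77 ± 0.06), and 3 of the list fell without replicate 3 of the 24 h group. MANBA was not called at 6 h (0.14 ± 0.11, edgeR adjusted p = 0.288) and changed by 1.18 ± 0.11 between 6 h and 24 h, while MCOLN1 changed by 0.09 ± 0.12 between the times and was not called.

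Of 16 subunits and accessory genes of the V-ATPase, the proton pump of lysosomes, 14 rose, against 23.3% of all genes (median 0.51). ATP6V0E1 rose from 47.4, 54.2 and 54.4 to 93.7, 109 and 105 CPM (0.98 ± 0.08). Autophagy and MiT/TFE genes were mixed, with 14 rises and 8 falls among 31 (45.2% and 25.8%, against 23.3% and 24.6% of all genes). GPNMB, a membrane glycoprotein and known target of the MiT/TFE factors, rose most, from 15.6, 14.8 and 17.1 to 127, 133 and 117 CPM (2.99 ± 0.11). It stood at 27.9, 24.0 and 23.2 CPM at 6 h. RRAGD and RRAGC, Rag GTPases that tether mTORC1 to lysosomes, rose by 1.95 ± 0.10 and 1.22 ± 0.07, and FLCN, their regulator folliculin, by 1.00 ± 0.08. SQSTM1, the autophagy receptor p62, rose from 231, 243 and 244 to 548, 553 and 491 CPM (1.15 ± 0.06). MITF, a member of the factor family itself, fell from 22.4, 19.0 and 19.2 to 6.85, 6.11 and 5.86 CPM (-1.69 ± 0.12), and the genes of TFE3 and TFEB were not called (0.02 ± 0.06 and -0.21 ± 0.12). RRAGD and GPNMB went on rising after 6 h, while FLCN, RRAGC and SQSTM1 were lower at 24 h than at 6 h (-0.78 ± 0.07, -0.75 ± 0.07 and -0.81 ± 0.06).

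Genes of sterol synthesis and uptake ended lower. Of 24 tested, 19 fell and 1 rose, against 24.6% and 23.3% of all genes, with a median of -0.46. The rise was TM7SF2, a sterol reductase (0.74 ± 0.20, not called with limma on log2(TPM + 1) or length offsets). FDFT1, squalene synthase, fell from 79.8, 72.3 and 77.9 to 35.5, 34.0 and 36.2 CPM (-1.12 ± 0.06), IDI1, an isomerase of the pathway, fell by 0.74 ± 0.10 and ACAT2 fell by 0.73 ± 0.07. HMGCS1, which makes HMG-CoA, fell from 140.0, 111 and 118 to 84.8, 92.6 and 95.5 CPM (-0.44 ± 0.08). At 6 h HMGCS1 was at 326, 329 and 369 CPM, above the untreated libraries. Of the list 17 genes rose and 4 fell at 6 h (31.6% and 33.3% of all genes), with a median of 0.38. Without scaling factors the 6 h median of all genes was -0.27, against -0.02 with TMM factors, so the 6 h directions are relative to that scaling. Between the times 18 of the 24 went lower and 2 higher (median -0.91). These shares were 75.0% and 8.33%, against 30.3% and 32.6% of all genes. Of 17 fatty acid and lipid genes 2 rose (1 without replicate 2 of the 24 h or replicate 1 of the untreated group) and 7 fell at 24 h. These shares were 11.8% and 41.2%, against 23.3% and 24.6% of all genes. FADS1, a fatty acid desaturase gene, fell by 1.08 ± 0.05.

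Chaperones of the endoplasmic reticulum followed the same order of times. At 6 h 15 of the 19 genes rose (31.6% of all genes), with a median of 0.34 that is likewise relative to the TMM scaling. At 24 h 15 fell and 2 rose, EDEM1 and CANX (median -0.59), against 24.6% and 23.3% of all genes. Neither rise was called with limma on log2(TPM + 1) or with length offsets, and 1 was called without untreated replicate 2 or 3. HSPA5, the chaperone BiP, stood at 754, 765 and 684 CPM untreated, at 1355, 1358 and 1322 at 6 h and at 400.4, 388 and 387 at 24 h. The 24 h libraries were the lowest and the 6 h libraries the highest, without overlap, and the 24 h change was -0.91 ± 0.05 and the difference between times -1.78 ± 0.05. HSP90B1, the chaperone GRP94, fell by 0.85 ± 0.06, calreticulin (CALR) fell by 0.74 ± 0.05, PDIA4, a disulfide isomerase, fell by 1.33 ± 0.14, and MANF, a secreted stress factor, fell by 1.11 ± 0.07. HERPUD1, of the degradation pathway, fell by 0.89 ± 0.09 and stood 1.00 ± 0.09 above untreated cells at 6 h. Of 28 genes of the ATF4 and amino acid response, 13 rose and 8 fell at 24 h (4 fell with limma on log2(TPM + 1)), and 21 rose and 4 fell at 6 h. The 24 h shares were 46.4% and 28.6%, against 23.3% and 24.6% of all genes. At 6 h they were 75.0% and 14.3%, against 31.6% and 33.3% of all genes. DDIT4, an inhibitor of mTORC1 signalling, rose from 62.7, 93.0 and 85.4 to 208, 245 and 201 CPM (1.44 ± 0.10). PPP1R15A, the phosphatase subunit GADD34, rose by 1.22 ± 0.07 and DDIT3, which encodes CHOP, by 1.04 ± 0.16. SLC7A5, a leucine transporter, fell from 526, 505 and 485 to 282, 278 and 249 CPM (-0.91 ± 0.07) after 1217, 1346 and 1266 at 6 h.

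Inflammatory genes were high at 6 h and mixed at 24 h. Of 20 tested NF-kB and inflammatory genes 6 rose (30.0%) and 5 fell (25.0%) at 24 h, close to the shares of all genes (23.3% and 24.6%). At 6 h 17 rose (31.6% of all genes), and between the times 17 went lower and 1 higher (median -1.96). The shares between the times were 85.0% and 5.00%, against 30.3% and 32.6% of all genes. With limma on log2(TPM + 1) 3 rose and 3 fell at 24 h. CXCL8, the chemokine interleukin-8, stood at 9.71, 5.14 and 6.50 CPM untreated, at 26.5, 44.2 and 49.0 at 6 h and at 1.96, 1.32 and 0.933 at 24 h. CCL2, another chemokine, stood at 5.98, 3.62 and 5.32, 32.7, 44.3 and 36.7 and 1.06, 1.76 and 1.35 CPM in the same order. For both the 24 h libraries were the lowest of the 9, and the 24 h changes were -2.34 ± 0.34 and -1.84 ± 0.27. NFKB1 fell by 0.47 ± 0.10 and NFKB2 rose by 0.48 ± 0.07, the genes of the p50 and p52 subunits. Of 21 tested secreted proteins of the senescence programme 5 rose (23.8%) and 9 fell (42.9%), and 3 rose with limma on log2(TPM + 1). IGFBP7 fell from 135, 145 and 163 to 58.4, 64.3 and 52.6 CPM (-1.34 ± 0.11) beside the rise of MMP3.

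Among 30 interferon-stimulated genes 7 rose and 8 fell, a share of calls near that of all genes. With limma on log2(TPM + 1) 3 rose, and without replicate 1 or 3 of the 24 h group or replicate 2 of the untreated group 3 to 4 rose. Without replicate 3 of the 24 h group 5 fell. IFI44L rose from 2.50, 3.31 and 3.76 to 6.53, 6.88 and 7.93 CPM (1.16 ± 0.22) and IFIT1 fell from 11.4, 11.97 and 10.4 to 7.54, 6.77 and 7.21 (-0.65 ± 0.16). The call of IFI44L was lost on log2(TPM + 1), at a limma adjusted p of 0.347, and with length offsets (0.431). Of 12 tested genes of HLA class I presentation, 5 rose (41.7%) and 1 fell (8.33%), against 23.3% and 24.6% of all genes. With limma on log2(TPM + 1) 3 rose, and 3 rose without replicate 1 of the 24 h or replicate 3 of the untreated group. Without replicate 1 of the 24 h group 2 fell. TAPBP, the chaperone tapasin, rose by 0.63 ± 0.08 and the peptide transporter gene TAP1 by 0.51 ± 0.21. TAP1 was called at an edgeR adjusted p of 0.0492, and lost the call without replicate 1 or 2 of the 24 h group or any 1 of the untreated libraries (edgeR adjusted p of 0.0833 to 0.181). Other genes share 24.5% of its stretches.

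Immediate early genes, which answer growth signals, had 5 rises (3 with limma on log2(TPM + 1)) and 13 falls among 20. These shares were 25.0% and 65.0%, against 23.3% and 24.6% of all genes. NR4A1, an orphan nuclear receptor gene, fell from 34.2, 36.4 and 33.6 to 12.8, 11.8 and 11.0 CPM (-1.55 ± 0.09) after 66.5, 79.2 and 76.8 at 6 h. FOS fell from 21.7, 21.0 and 20.6 to 9.76, 12.2 and 8.03 CPM (-1.08 ± 0.14), whereas FOSL2, another AP-1 gene, rose from 415, 379.9 and 383 to 729, 734 and 655 (0.85 ± 0.06). Of 14 tested feedback genes of the MAPK pathway 9 fell (64.3%) and 1 rose (7.14%), against 24.6% and 23.3% of all genes. ETV4 and ETV5, ETS factors induced by ERK signalling, fell (-1.08 ± 0.08 and -1.26 ± 0.09), as did the phosphatase gene DUSP2 (-0.71 ± 0.17) and PHLDA1 (-0.65 ± 0.14).

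Matrix, adhesion and cytoskeletal genes included abundant RNAs that fell. Of 17 tested YAP/TEAD targets and factors 14 fell and 1 rose, MYOF (0.98 ± 0.07), with a median of -0.38. Among all genes 24.6% fell and 23.3% rose. CTGF, a secreted matricellular protein, fell from 483, 444 and 412 to 69.2, 75.1 and 68.2 CPM (-2.66 ± 0.07), after 256, 276 and 235 at 6 h. CYR61, its relative, fell from 299, 254 and 266 to 114, 116 and 115 CPM (-1.25 ± 0.06), and WWTR1, which encodes the YAP relative TAZ, fell by 1.22 ± 0.07. Of 19 tested muscle and SRF genes 14 fell (73.7%) and 1 rose (5.26%). TPM1, a tropomyosin, fell from 693, 772 and 739 to 283, 305 and 296 CPM (-1.32 ± 0.05) and CALD1, caldesmon, fell by 1.15 ± 0.06. The rise was ACTA2, smooth muscle actin, from 4.70, 3.88 and 2.95 to 14.8, 19.5 and 14.0 CPM (2.06 ± 0.21), with 33.2% of its stretches shared with other genes. At 6 h 11 genes of that list rose and 4 fell (31.6% and 33.3% of all genes).

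Of 27 collagen and matrix genes 9 rose (33.3%) and 11 fell (40.7%), against 23.3% and 24.6% of all genes. With limma on log2(TPM + 1) 5 rose. THBS1, thrombospondin 1, fell from 808, 786 and 718 to 275, 268 and 263 CPM (-1.52 ± 0.05), LOX, which crosslinks collagen, fell by 1.32 ± 0.08 and COL3A1, a fibrillar collagen chain, fell by 1.07 ± 0.10. Fibronectin (FN1) rose, from 1487, 1287 and 1865 to 2404, 2421 and 2212 CPM (0.60 ± 0.15). Of 19 tested metalloproteinases and inhibitors 5 rose (26.3%) and 9 fell (47.4%), against 23.3% and 24.6% of all genes. Among them MMP16 rose by 1.28 ± 0.07, and MMP13 and ADAMTS12 fell (-1.51 ± 0.20 and -1.22 ± 0.07). Genes of BMP and TGF-beta feedback had 4 rises (1 with limma on log2(TPM + 1) or without replicate 2 of the 24 h group) and 12 falls among 21. These shares were 19.0% and 57.1%, against 23.3% and 24.6% of all genes. INHBA, an activin subunit, stood at 179, 141 and 137 CPM untreated, 455, 564 and 626 at 6 h and 66.7, 62.6 and 74.1 at 24 h, a 24 h change of -1.17 ± 0.11. BAMBI, NOG and FST, which block BMP, TGF-beta or activin signals, fell (-1.25 ± 0.19, -0.94 ± 0.08 and -0.93 ± 0.09).

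**Figure D4:**
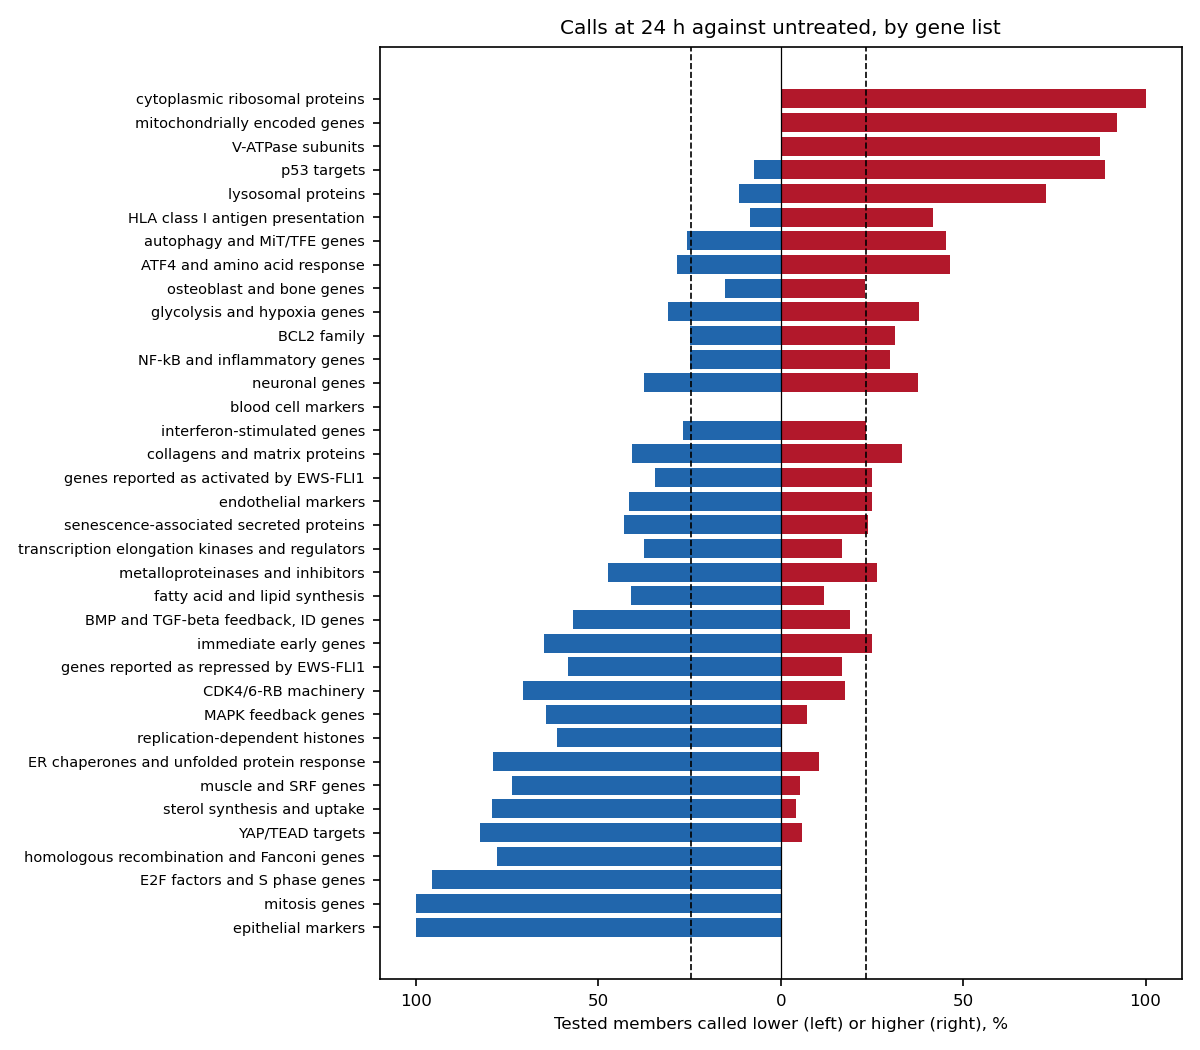
Percentage of tested members called higher (red, to the right) or lower (blue, to the left) at 24 h against untreated cells, for the 36 gene lists. Dashed lines mark the shares among all genes tested, 23.3% higher and 24.6% lower.

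Members named beyond the ranking rule of the methods were chosen after their values were seen. Genes that the Ewing sarcoma literature ties to the fusion were counted next. Of 32 tested genes reported as activated by EWS-FLI1, 8 rose (25.0%) and 11 fell (34.4%), against 23.3% and 24.6% of all genes (median -0.13). With limma on log2(TPM + 1) or length offsets 5 rose. Of 24 tested genes reported as repressed, 4 rose (16.7%) and 14 fell (58.3%; median -0.60). SOX2, a stem cell factor of the activated list, fell from 19.5, 24.2 and 23.4 to 5.68, 6.38 and 6.07 CPM (-1.89 ± 0.16). UPP1, uridine phosphorylase, rose from 42.6, 35.1 and 37.6 to 99.7, 98.3 and 99.9 CPM (1.37 ± 0.08). CRYAB, a small heat shock protein of the repressed list, fell from 103, 108 and 110.5 to 21.0, 22.2 and 19.6 CPM (-2.36 ± 0.08), with 34.9 ± 1.30 CPM in mCherry cells. AURKB and FOXM1 of the activated list and CTGF, THBS1 and LOX of the repressed list also stand in the lists above.

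Markers of bone and of other tissues were measured as part of the same fit. All 9 tested epithelial markers fell, 3 of them keratins of high level, and without replicate 1 of the 24 h group 5 of the 9 fell. KRT17 stood at 1046, 1025 and 1066 CPM untreated, 2241, 2281 and 2089 at 6 h and 454, 531 and 448 at 24 h, KRT18 fell by 1.22 ± 0.05 and KRT8 fell by 0.69 ± 0.05. Between 37.7% and 67.5% of the stretches of these 3 keratins are shared with other genes. Of 12 endothelial markers 3 rose (25.0%) and 5 fell (41.7%), against 23.3% and 24.6% of all genes. CDH5, the endothelial cadherin, fell from 7.31, 7.19 and 6.39 to 0.478, 1.16 and 1.19 CPM (-2.88 ± 0.27), with 0.998 ± 0.287 CPM in mCherry cells, and ERG, an ETS factor, fell by 0.93 ± 0.19. The 3 rises were in genes with a mean below 5 CPM in both groups. Log2 changes of the list ran from -2.88 to 2.45. Of 16 tested neuronal genes 6 rose (37.5%) and 6 fell (37.5%), against 23.3% and 24.6% of all genes. NEFL, a neurofilament, rose from 37.5, 43.6 and 34.3 to 85.3, 95.1 and 78.6 CPM (1.17 ± 0.10). NCAM1, an adhesion molecule, fell from 151, 158 and 166 to 53.2, 55.1 and 51.4 CPM (-1.57 ± 0.07). Of 13 tested bone genes 3 rose (23.1%) and 2 fell (15.4%), no larger a share than of all genes (23.3% and 24.6%), and 1 fell without replicate 1 or 3 of the 24 h group or replicate 1 or 2 of the untreated group. SPP1, osteopontin, rose from 2.91, 3.41 and 1.88 to 11.4, 11.6 and 10.8 CPM (2.04 ± 0.22), and RUNX2, the master factor of osteoblasts, by 0.25 ± 0.07. TNFRSF11B of the same list fell, from 896, 564 and 760 estimated counts in the untreated libraries to 258, 368 and 354 at 24 h. RUNX2 lost its call without replicate 2 of the 24 h group or replicate 2 or 3 of the untreated group (edgeR adjusted p of 0.0542 to 0.109). Of 10 blood cell markers 3 had enough counts to be tested, PTPRC, ITGAM and CD74, with edgeR adjusted p of 0.991, 0.098 and 0.539. Their summed level was 1.69 to 2.15 CPM in untreated libraries and 1.87 to 2.38 at 24 h.

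Cytoplasmic ribosomal protein genes rose by small amounts and all together. All 25 on the list were called higher, with a median of 0.40, and RPL22 rose most, from 219, 223 and 226 to 341, 370.3 and 364 CPM (0.68 ± 0.05). RPL3, a core protein of the large subunit, rose from 1948, 2104 and 2189 to 2989, 3309 and 3035 CPM (0.58 ± 0.06). Of 13 mitochondrially encoded genes 12 rose, again against 23.3% of all genes (median 0.38), MT-ND2 among them (0.44 ± 0.08). Of 29 tested glycolysis and hypoxia genes 11 rose and 9 fell (4 rose with limma on log2(TPM + 1) and 7 without replicate 2 of the 24 h group), with the glucose transporter SLC2A3 rising by 0.94 ± 0.07 while NDRG1 fell by 1.06 ± 0.06. Of 24 genes of transcription elongation 4 rose (16.7%) and 9 fell (37.5%), against 23.3% and 24.6% of all genes. HEXIM1, an inhibitor of the elongation kinase P-TEFb, fell from 122, 126 and 129 to 36.0, 37.1 and 38.5 CPM (-1.75 ± 0.07) after 21.4, 19.7 and 17.8 at 6 h, and POLR2A, the largest subunit of RNA polymerase II, fell by 1.04 ± 0.14.

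Set directly against 6 h, the 24 h cells differed in 10554 genes (62.9%), of which 5465 were higher (32.6%) and 5089 lower (30.3%). The 6 h cells differed from untreated ones in 10890 genes (64.9%), and since these comparisons share libraries, no overlap of their calls is given. Without scaling factors 70.4% of the calls at 24 h against 6 h were higher, against 51.8% with TMM factors, and the median of all genes moved from 0.05 to 0.31. Directions between the times are therefore relative to the TMM scaling. That holds for 6 h against untreated cells too, where rises made up 32.2% of the calls without scaling factors and 48.7% with TMM factors. Several of the largest falls from 6 h to 24 h were in genes that stood high at 6 h. BCL2A1, a survival gene of the BCL2 family, was at 0.307, 0.577 and 0.806 CPM untreated, 11.7, 21.0 and 15.6 at 6 h and 0.425, 0.165 and 0.0518 at 24 h. NPR3, the clearance receptor of natriuretic peptides, was at 0.409, 0.735 and 0.967, 33.6, 31.7 and 25.4 and 0.371, 0.495 and 0.674 CPM. CD200R1, an immune inhibitory receptor, averaged 0.0866 ± 0.0799, 5.16 ± 0.488 and 0.0346 ± 0.0599 CPM. For these 3 genes the untreated and the 24 h libraries overlapped and the 24 h change was not called. BCL2A1 was called lower at 24 h with DESeq2 (adjusted p = 0.0302). With edgeR it was called lower with no filter on low counts (adjusted p = 0.02295). The same held without replicate 1 of the 24 h group (edgeR adjusted p = 0.0128) or of the untreated group (0.0305). XIRP1, an actin-binding protein of muscle, held 243 counts over the 3 libraries at 6 h, 143 in untreated cells and 0 at 24 h. Taking 3 counts over the 3 libraries as the floor, it was at least 94.4-fold lower at 24 h than at 6 h and at least 46.9-fold lower than in untreated cells.

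Other genes were lowest at 6 h. SMAD6, an inhibitor of BMP signalling, was at 37.2, 55.0 and 43.5 CPM untreated, 2.69, 3.41 and 2.42 at 6 h and 28.7, 27.5 and 20.4 at 24 h, and its 24 h change from untreated cells was -0.83 ± 0.12. GAS1, a growth arrest protein, was at 9.61, 9.97 and 7.20, 0.183, 0.821 and 0.558 and 6.85, 8.36 and 5.18 CPM, and FAM171A2, a membrane protein, at 21.7, 24.8 and 24.9, 2.94, 1.89 and 2.73 and 23.0, 26.4 and 19.3. For GAS1 and FAM171A2 the 24 h libraries overlapped the untreated ones, with changes of -0.39 ± 0.20 and -0.06 ± 0.14 that were not called. GAS1 was called lower without replicate 2 of the 24 h group (edgeR adjusted p = 0.029) or replicate 3 of the untreated group (0.0375). RFXAP, part of the factor complex of HLA class II genes, was at 5.96 ± 1.19, 0.625 ± 0.383 and 6.02 ± 0.273 CPM. FAM13C averaged 8.21 ± 0.241, 1.27 ± 0.823 and 11.4 ± 2.47 CPM, and CCDC103 3.73 ± 2.59, 0.498 ± 0.332 and 6.35 ± 0.302, with 96.9% of its stretches shared. IQCN, low at 6 h too, ended above untreated cells, at 2.25, 1.68 and 2.20, 0.367, 0.379 and 0.0621 and 6.85, 6.49 and 5.81 CPM (1.64 ± 0.33 at 24 h). SPATA12 was higher at 24 h, at 5.52, 7.43 and 5.24 CPM, than in both other groups (1.18, 0.367 and 0.913 untreated and 0.734, 0.316 and 0.496 at 6 h).

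**Figure D5:**
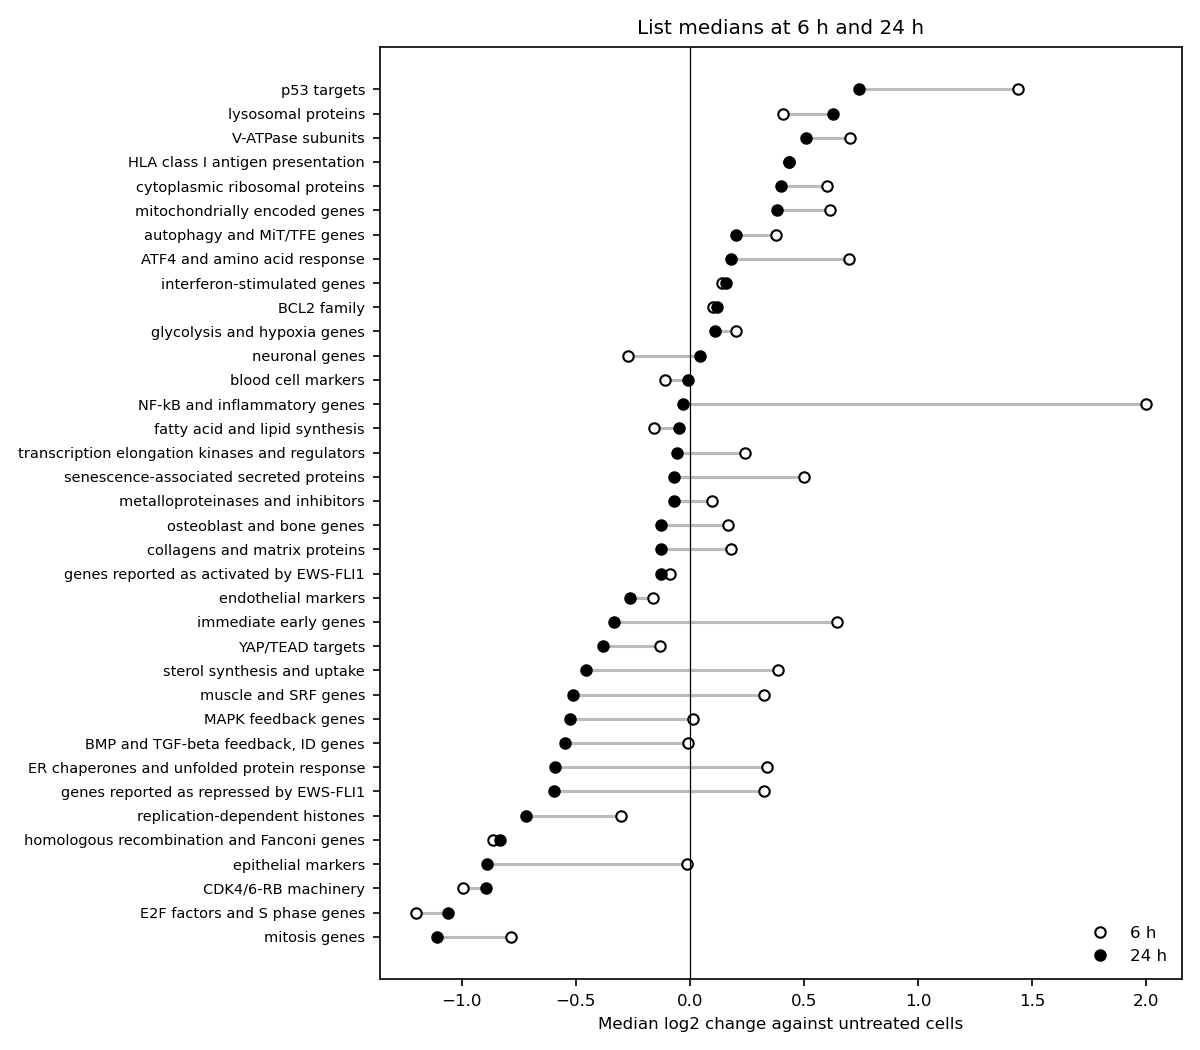
Median log2 change against untreated cells of the tested members of each of the 36 gene lists, at 6 h (open circles) and at 24 h (filled circles), with a line joining the 2 times. The medians of the E2F, mitosis, p53, lysosomal and ribosomal lists stand on the same side of 0 at both times, and those of the sterol, endoplasmic reticulum and muscle lists stand above 0 at 6 h and below 0 at 24 h.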

How the data were processed

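PolyA RNA of U2OS lines was sequenced in 18 libraries, 6 groups of 3, grouped by their titles. Per the submitters' processing notes the authors used CASAVA and kallisto 0.46 with hg38; the index, strand setting and filters are not given in the sources used here, and the labels name 2 kits for library preparation with no assignment to libraries. The deposited estimated counts per transcript (not whole numbers), the deposited TPM and the deposited effective lengths in bases come from 1 table per library. Of 188753 transcripts, 169797 matched GENCODE 29 genes, and 2.59% to 2.74% of counts did not match and were not used. Sums of estimated counts per gene were rounded to whole numbers. TMM scaling, filtering by expression and edgeR 4.0.16 quasi-likelihood fits (R 4.3.3) used all 18 libraries with 1 mean per group, 12 residual degrees of freedom and a biological coefficient of variation of 8.77%. P-values were Benjamini-Hochberg adjusted over 16786 genes. The script was tested on simulated data. Alternatives used DESeq2 1.42.0, limma 3.58.1, upper-quartile or no scaling, no filter, length offsets, a log2 threshold of 0.5, fewer libraries and a replicate block. Counts can be misassigned between similar transcripts, so the share of 31-base stretches of a gene's main transcript found in other genes is given for some genes. It was also large for others, among them RPL22 (79.1%), ACAT2 (68.4%), NUSAP1 (63.0%), MT-ND2 (56.9%), RPL3 (53.6%), SQSTM1 (51.7%), CDK4 (48.4%), DDIT4 (45.8%), RRAGC (42.7%) and SLC2A3 (42.3%). Promoters are RefSeq sequences on GRCh38.p14.

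Named genes were FLI1, EWSR1 and the 4 given with the comparison, then called protein-coding genes of at least 5 CPM in the higher group without overlap (the 12 largest rises and falls at 24 h, and the 8 each against 6 h), and up to 4 called members per list by fold. The members and lists were chosen with earlier results of these data known. Some genes that this rule names are not reported here.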

Additional observations from a re-analysis of the deposited data

Results flagged for a closer look

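For 25 of the genes named in the text, with TMM scaling, RNA moved one way at 6 h and the other way at 24 h. Both changes were called against the same untreated libraries, and the difference between 24 h and 6 h was itself called by edgeR. The 6 h directions are relative to that scaling. Summed over 3 libraries, unscaled counts at 6 h were below untreated cells for CALD1 (19728 against 20619), CTSL (7342 against 7639) and KRT18 (16597 against 18097). They were nearly equal for HIST1H1C (9657 against 9581). Differences below are log2 values, 24 h minus 6 h.

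Chaperones and secretory genes were higher at 6 h and lower at 24 h, with differences of -1.78 ± 0.05 for HSPA5, -1.21 ± 0.06 for HSP90B1, -1.11 ± 0.05 for CALR, -1.45 ± 0.07 for MANF and -1.89 ± 0.09 for HERPUD1. Sterol genes did the same, at -1.91 ± 0.08 for HMGCS1 and -1.08 ± 0.10 for IDI1, as did SLC7A5, a leucine transporter, at -2.24 ± 0.08 and the lysosomal protease CTSL at -0.96 ± 0.06.

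Signalling genes with a high 6 h level and a low 24 h level were CXCL8 (-4.82 ± 0.33), CCL2 (-4.76 ± 0.25), NFKB1 (-2.44 ± 0.10), NR4A1 (-2.65 ± 0.09), INHBA (-3.02 ± 0.11) and GADD45B (-1.09 ± 0.07). Structural genes of this kind were the keratins KRT17 (-2.21 ± 0.08), KRT18 (-1.34 ± 0.05) and KRT8 (-1.01 ± 0.05), the actin-binding CALD1 (-1.33 ± 0.06) and XIRP1 (a fitted -9.54 ± 0.74, which depends on the prior count because XIRP1 had no count at 24 h), and the linker histone HIST1H1C (-1.37 ± 0.08).

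The reverse, lower at 6 h and higher at 24 h, was seen in IQCN (4.53 ± 0.43), NEFL, a neurofilament (1.64 ± 0.10), MYOF, a membrane repair protein (1.37 ± 0.08), and RUNX2 (0.85 ± 0.08). The 24 h rise of RUNX2 lost its call without replicate 2 of the 24 h group or replicate 2 or 3 of the untreated group.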

How the results depend on the processing

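For 24 h against untreated cells, the number of called genes was 8114 with DESeq2, 8101 with upper-quartile factors, 8046 without scaling, 5849 with length offsets and 5999 with limma, against 8051, and 7122 to 7480 when 1 library was left out. Tested against a log2 change of 0.5 it was 2300, against 6 h 5085 and for 6 h against untreated 5552, since that test asks for larger changes. Between the times, leaving out 1 library gave 9935 to 10114 calls, and for 6 h against untreated 10241 to 10428. Deviations from the group mean in same-numbered 24 h and untreated libraries correlated at -0.01 in each of the 3 pairs. Such values hold the counting noise of all genes, so they cannot decide whether same-numbered libraries were prepared together. The replicate block gave 8064 calls, 7582 with only the 2 groups compared (7699 without the block), and among the genes named TAP1 and WNT3 lost their 24 h call under the block over all libraries (edgeR adjusted p of 0.0602 and 0.0542), while CCND1 gained one. Changes that reversed were all between 24 h and 6 h: RPL22 at 0.24 without scaling, and TFEB at 0.35 with limma on log2(TPM + 1) and 0.16 with length offsets. The cause was not tested. At this depth 7 of 10 blood cell markers had too few counts to be tested.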

Other observations

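Several gene groups outside the comparison above were picked after their values were seen, so their counts describe and test nothing. Among all genes tested 23.3% rose and 24.6% fell at 24 h, the shares to set beside these counts. TXNIP and its relatives, arrestin-domain proteins that curb glucose uptake or receptor levels, had 3 rises among 5, and 1 fall that was not called with most alternatives, limma and the replicate block among them. TXNIP rose from 40.5, 61.6 and 60.6 to 199, 233 and 213 CPM (1.99 ± 0.17), with 42.5, 43.2 and 39.5 at 6 h, and ARRDC4 from 8.23, 9.76 and 10.4 to 50.6, 58.4 and 56.2 (2.54 ± 0.12). Among 14 WNT ligands 8 fell and 1 rose, but 5 fell and 2 rose without replicate 3 of the 24 h group, and none rose with limma, with length offsets or without 1 of 4 other libraries. WNT3 was uneven, at 0.153, 9.82 and 9.83 CPM in the untreated libraries and 3.82, 0 and 0.363 at 24 h, so the groups overlapped, and edgeR's call of it as lower was lost with DESeq2 (adjusted p = 0.161), with limma and without any 1 of 4 libraries. Of 19 semaphorins, guidance proteins of axons and vessels, 9 fell and 2 rose (1 with limma), with SEMA3G going from 12.8, 9.19 and 9.78 to 1.49, 1.93 and 1.66 CPM (-2.64 ± 0.18) and SEMA3E from 93.3, 108 and 98.5 to 22.4, 23.2 and 24.6 (-2.09 ± 0.09). PDGFRB, a receptor of the ligand PDGFB named above, fell from 128, 128 and 124 to 21.5, 22.9 and 20.5 CPM (-2.55 ± 0.08), and CXCL14, a chemokine, from 547, 547 and 471 to 46.5, 56.2 and 62.6 (-3.24 ± 0.12).

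Of 12 SR splicing factor genes 8 fell (66.7%) and 2 rose (16.7%), against 24.6% and 23.3% of all genes. SRSF5 was among the rises (0.66 ± 0.07). Of these genes 1 rose with limma, with the replicate block and without replicate 3 of the 24 h or replicate 2 or 3 of the untreated group. Of 61 protocadherin genes 10 rose (16.4%) and 7 fell (11.5%) against untreated cells, lower shares than the 23.3% and 24.6% of all genes. With length offsets 3 fell. At 24 h 39 were higher and 5 lower than at 6 h (63.9% and 8.20%, against 32.6% and 30.3% of all genes). Pseudogenes made up 140 of the 834 called rises of at least 1 on the log2 scale (16.8%) and 22 of the 978 falls (2.25%), against 7.96% of all genes tested.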
